A study of Mus musculus with 2 samples.

Results

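Interferon-stimulated genes were described across the cell classes of mouse brain carrying a glioblastoma graft, as a list of 48 genes given by symbol. Of these, 46 were found among the 32285 genes of the deposited tables. Mx1 and Mx2 had no row under those symbols and were not analysed here. The list was drawn up with values of these same libraries known, and every ratio between the libraries comes from the contrast that shaped it. All levels, ratios and counts of members are therefore given as descriptions.

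Interferons are secreted cytokines that bind cell-surface receptors and, through JAK kinases, activate STAT transcription factors. Genes induced by type I interferons usually carry the interferon-stimulated response element (ISRE), which is bound by a complex that holds IRF9, whereas interferon gamma acts largely through gamma-activated sites (GAS). The induced genes block several steps of viral growth, and in brain they are known in microglia, astrocytes, endothelial cells and ependyma during infection, injury and ageing.

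The data are droplet single-cell RNA-seq of 2 libraries, each from brain tissue of a host on the C57BL/6 background bearing KR158 cells, a mouse glioblastoma line. The control host was Cx3cr1 CreER/+ Plxnb2 fl/+ and its library is titled WT, although it carries 1 floxed allele of Plxnb2. The cKO host was Cx3cr1 CreER/+ Plxnb2fl/fl. Both hosts therefore carry the same inducible Cre, driven from the Cx3cr1 locus, which is active in microglia and other myeloid cells, and both received tamoxifen at 100 mg/kg, begun 3 days before the graft and repeated on alternate days through 8 weeks. Tissue within 1 mm to either side of the injection site was taken at 8 weeks. Cells were freed with papain, cleared of debris on Percoll and of red cells by lysis, and no sort is described. Ages and sexes of the hosts are not given in the labels used here. The series asks what loss of Plexin-B2, a semaphorin receptor, from these myeloid cells does to the grafted brain. With 1 library per genotype, genotype, animal and library preparation cannot be told apart and no test between groups can be made.

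After the same filters on both libraries, 7645 control and 5206 cKO cells remained, with median depths of 4626 and 5917 unique molecular identifiers (UMIs, distinct tagged RNA molecules). Of their barcodes, 8 occurred in both libraries. The control table had been filtered before deposit, since each of its barcodes has at least 500 UMIs, and the cKO table had not. Classes were named from marker genes, and the 9 with at least 50 cells in each library were compared: microglia-like, border macrophage-like, T cell-like, astrocyte-like, ependymal-like, oligodendrocyte-like, neuroblast-like, endothelial-like, and pericyte-like or smooth-muscle-like cells, written without "-like" from here on. The defining markers were present: 11 of 11 microglial markers were measured in microglia, 10 of 10 astrocyte markers in astrocytes and 10 of 10 endothelial markers in endothelial cells. No cluster was named as tumour cells. Plxnb2, the targeted gene, stood at 198 CPM (counts per 1e+06 UMIs of a class) in control and 36.7 in cKO microglia (log2 ratio -2.43, -2.68 to -2.19), and at 98.6 and 32.3 CPM in border macrophages. In ependymal cells it stood at 255 and 265 CPM. Where in Plxnb2 the 3′ reads fall relative to the floxed segment is not known here, so they are no measure of recombination.

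Throughout, a pair of values gives the control library first and the cKO library second, and the log2 ratio is cKO over control. The range after a ratio is its exact 95% interval, which covers counting error only. A member counted as measured in a class with a mean of at least 20 CPM over the libraries and at least 30 UMIs in all, and as higher or lower when the levels differed by 2-fold or more.

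An ISRE in the promoter is a usual feature of genes induced by type I interferon, and promoters are shown here because the levels of the members differed between the libraries in several classes at once. RefSeq promoter windows (GRCm38.p6, the mm10 build), which run from 250 bases before to 50 bases after a transcription start, were found for 38 of the 46 members. The core ISRE motif, read here as GAAA, NN (any base at each N) and GAAA in a row on either strand, occurred in windows of 21 of these 38 members (55.3%), against 1079 of 27025 genes in all (3.99%). Of the 33 other interferon-induced genes with a window that are no members, 18 held it (54.5%). The GAS motif TTCNNNGAA, which reads the same on both strands, occurred in 10 of the 38 members (26.3%), in 5 of the 33 other interferon-induced genes (15.2%), in 3 of the 20 with a window in a core list that leaves out some members with a high resting level, and in 9.55% of all genes. Overlapping matches of a motif were counted separately, and in 2 members an ISRE match overlapped a GAS match. The windows of the Ifit, Oas and Gbp genes with the most UMIs and of Isg15, Rsad2 and Irf7 follow, 5′ to 3′ on the strand of the gene, with ISRE matches in capitals. Usp18, also due by the same choice, had no window.
Ifit1 chr19:34640639-34640938, plus strand: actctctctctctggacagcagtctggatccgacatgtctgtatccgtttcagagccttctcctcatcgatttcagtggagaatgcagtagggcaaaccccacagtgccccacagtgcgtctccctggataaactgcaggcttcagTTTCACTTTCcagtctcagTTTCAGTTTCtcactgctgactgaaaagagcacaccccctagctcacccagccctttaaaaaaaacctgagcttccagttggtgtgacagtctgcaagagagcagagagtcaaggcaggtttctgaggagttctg
Isg15 chr4:156200769-156201068, minus strand: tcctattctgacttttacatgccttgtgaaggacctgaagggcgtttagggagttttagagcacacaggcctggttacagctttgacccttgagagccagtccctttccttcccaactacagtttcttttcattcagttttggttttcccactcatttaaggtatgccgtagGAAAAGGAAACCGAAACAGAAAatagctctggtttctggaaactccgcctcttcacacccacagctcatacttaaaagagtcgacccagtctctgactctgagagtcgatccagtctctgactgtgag
Rsad2 chr12:26456403-26456702, minus strand: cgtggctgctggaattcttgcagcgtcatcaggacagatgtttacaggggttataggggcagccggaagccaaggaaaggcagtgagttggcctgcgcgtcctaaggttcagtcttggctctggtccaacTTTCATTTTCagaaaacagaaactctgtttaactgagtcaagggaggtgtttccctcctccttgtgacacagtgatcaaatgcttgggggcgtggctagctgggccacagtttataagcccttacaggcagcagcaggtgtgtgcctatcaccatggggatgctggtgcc
Gbp7 chr3:142530086-142530385, plus strand: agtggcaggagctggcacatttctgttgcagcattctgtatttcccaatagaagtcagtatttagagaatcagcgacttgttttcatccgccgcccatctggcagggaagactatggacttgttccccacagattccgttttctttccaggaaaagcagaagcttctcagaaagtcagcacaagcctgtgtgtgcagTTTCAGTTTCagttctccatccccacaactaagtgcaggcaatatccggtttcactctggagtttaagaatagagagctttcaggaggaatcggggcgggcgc
Oasl2 chr5:114896684-114896983, plus strand: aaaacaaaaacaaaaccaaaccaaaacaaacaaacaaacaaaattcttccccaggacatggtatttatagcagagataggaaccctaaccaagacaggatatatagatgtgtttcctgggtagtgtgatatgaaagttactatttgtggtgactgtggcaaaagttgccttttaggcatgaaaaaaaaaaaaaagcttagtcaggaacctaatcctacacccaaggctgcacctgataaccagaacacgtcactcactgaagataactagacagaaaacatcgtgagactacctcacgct
Irf7 chr7:141266375-141266674, minus strand: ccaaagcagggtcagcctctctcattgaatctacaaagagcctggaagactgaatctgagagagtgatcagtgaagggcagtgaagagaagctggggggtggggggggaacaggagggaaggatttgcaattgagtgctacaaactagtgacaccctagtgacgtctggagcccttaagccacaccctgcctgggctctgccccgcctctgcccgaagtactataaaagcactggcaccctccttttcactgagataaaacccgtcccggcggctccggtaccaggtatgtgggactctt
In Ifit1 the matches began 104 and 85 bases before the start site, in Isg15 a run of 3 overlapping matches began 78 bases before it, in Rsad2 1 match began 120 bases before it and in Gbp7 1 match began 53 bases before it. The Oasl2 and Irf7 windows held no match to these letters. Measured members with an ISRE match had a median log2 ratio of 1.76 in astrocytes (11 genes) and 1.00 in microglia (13 genes), while those with a window but no match had 1.22 (4 genes) and 1.52 (10 genes), so the order differed between these classes.

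On mm10, 23 of the 46 members lie within 500 kb of another member, in 8 shared loci. The Ifit genes (Ifit2, Ifit3, Ifit3b, Ifit1) occupy chromosome 19 from 34550694 to 34650009, and the Ifitm genes with Irf7 chromosome 7 from 140954837 to 141266481. Schlafen members lie on chromosome 11 from 82951349 to 83070678, Gbp7, Gbp3 and Gbp2 on chromosome 3 from 142530342 to 142638008, Rsad2 and Cmpk2 side by side on chromosome 12 from 26442746 to 26479837, and Ifi27 with Ifi27l2a on the same chromosome from 103434211 to 103443680. Some neighbours are near copies. In the last 500 bases of the transcript, where a 3′ tag falls, Ifit3 shared 24.0% of its 31-base words with Ifit3b, Oas1a 70.0% with Oas1g, Ifitm2 51.5% and Ifitm3 28.3% with other genes or pseudogenes, and Ifi27l2a 6.00% with Ifi27l2b. How reads that match several of these genes were assigned is not given in the sources used here, so the split of counts within the pairs is uncertain. Of the 46 members, 29 shared no such word with another gene.

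Summed over all 46 members with no minimum, the level was higher in the cKO library in each of the 9 classes. In microglia it was 1347 and 3847 CPM (log2 ratio 1.51, 1.48 to 1.55), in astrocytes 519.7 and 1419.5 CPM (1.45, 1.41 to 1.49), and in ependymal cells, the ciliated lining of the ventricles, 1547 and 4285 CPM (1.47, 1.43 to 1.51). Neuroblasts had the lowest control level, 182 CPM from 123 UMIs, and 590.4 CPM in the cKO library (1.69, 1.42 to 1.98). These 4 classes had the highest ratios of the summed level. In pericytes or smooth muscle cells, which wrap brain vessels, it was 1765 and 3502 CPM (0.99, 0.89 to 1.09), a ratio that was 0.44 when cells were limited to 5% mitochondrial UMIs in place of 10%, and in oligodendrocytes 348 and 627 CPM (0.85, 0.77 to 0.93). Endothelial cells had 4785 and 7696 CPM (0.69, 0.66 to 0.71), T cells 3415 and 5178 CPM (0.60, 0.49 to 0.71) and border macrophages 5876 and 7875 CPM (0.42, 0.35 to 0.49). The 3 classes with the highest control levels thus had the 3 lowest ratios, and control endothelial cells stood above cKO microglia.

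**Figure D1:**
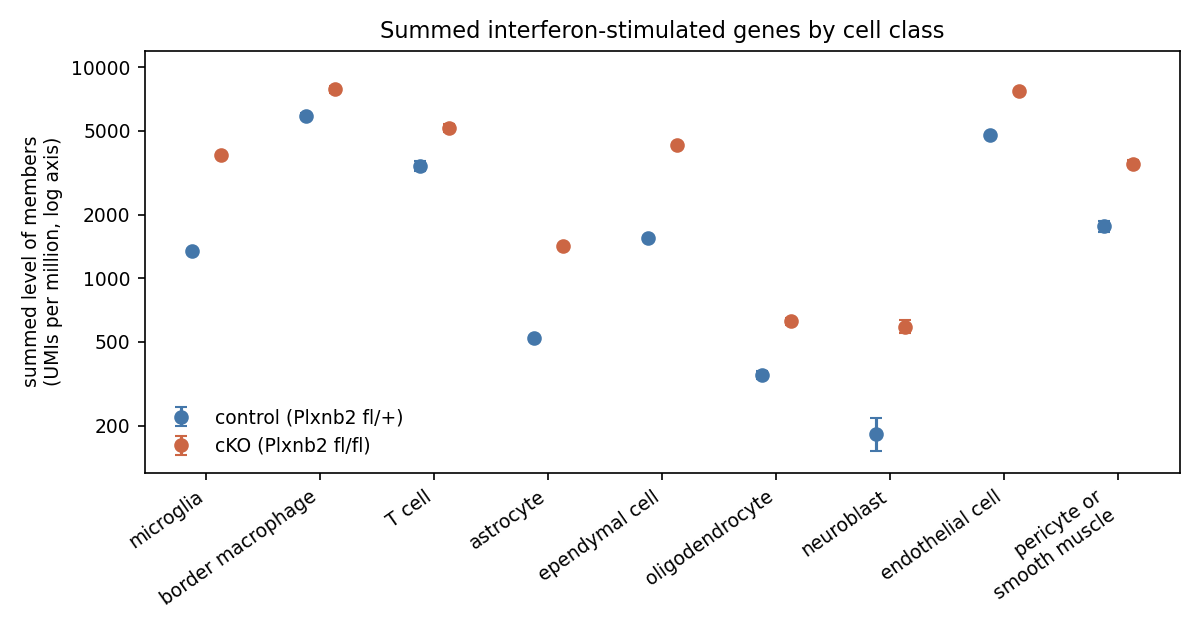
Summed level of the 46 members (CPM, log axis) in each cell class, in the control and cKO libraries, with exact Poisson 95% intervals that cover counting error only. The cKO point is above the control point in each of the 9 classes, from 182 against 590.4 CPM in neuroblasts to 5876 against 7875 CPM in border macrophages.

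The order of the classes depended on which members dominated them. Without the 3 members with the most UMIs in each class, the log2 ratio was 1.26 in microglia, 1.51 in astrocytes, 1.96 in ependymal cells, 1.40 in pericytes or smooth muscle cells, 1.15 in neuroblasts, 0.86 in oligodendrocytes, 0.74 in endothelial cells, 0.45 in T cells and 0.24 in border macrophages. A core list of 27 genes, 25 of them found, leaves out some members with a high level in resting cells, such as the Ifitm and Ifi27 genes. Its sum gave 2.34 in ependymal cells (239 and 1210.1 CPM), 1.70 in astrocytes (166 and 539 CPM), 1.69 in pericytes or smooth muscle cells, 1.59 in microglia, 1.49 in neuroblasts, 0.91 in endothelial cells, 0.56 in T cells, 0.53 in oligodendrocytes and 0.23 in border macrophages. The core list was not low in every control class, with 1609 CPM in endothelial cells. In control oligodendrocytes it summed to 144 CPM, where all members without Ifi27, Xaf1 and Ifi27l2a summed to 86.1 CPM.

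Member by member, 32 were at least 2-fold higher in the cKO library in at least 1 class, and none was 2-fold lower in any class where it was measured. In microglia 15 of 28 measured members were higher, where 1.15% of all 6330 measured genes were. The counts were 13 of 16 in astrocytes (0.325% of all genes), 17 of 21 in ependymal cells (0.725%), 9 of 18 in pericytes or smooth muscle cells (3.12%) and 10 of 38 in endothelial cells (0.349%). They were 4 of 26 in T cells (3.25%), 3 of 3 in neuroblasts (0.877%), 1 of 3 in oligodendrocytes (0.0345%) and 0 of 30 in border macrophages (3.07%). The share of all measured genes that were 2-fold lower was 0.379% in microglia, 0.278% in astrocytes, 0.0976% in ependymal cells, 1.36% in pericytes or smooth muscle cells, 0.301% in endothelial cells, 2.68% in T cells, 1.36% in neuroblasts, 0.362% in oligodendrocytes and 3.57% in border macrophages. Members absent from the control and measured only through the cKO library had to be higher, so these counts were also taken over members with at least 20 CPM in the control alone. They were then 6 of 18 in microglia, 4 of 6 in astrocytes, 6 of 8 in ependymal cells, 9 of 35 in endothelial cells, 4 of 13 in pericytes or smooth muscle cells, 5 of 37 in T cells, 0 of 39 in border macrophages, 1 of 1 in neuroblasts and 0 of 2 in oligodendrocytes. The minimum of 30 UMIs was not applied to this second set of counts. The share of all genes under the same rule was not taken, so these counts have no background beside them.

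The median log2 ratio of measured members was 1.81 in ependymal cells, 1.36 in astrocytes, 1.31 in microglia, 1.04 in pericytes or smooth muscle cells (the same with Ifit1, at 0 UMIs in the control, set to its lower bound), 0.68 in endothelial cells, 0.57 in T cells and 0.27 in border macrophages, while the median over all measured genes lay between -0.02 and 0.06 in every class. These medians can include members that passed the minimum only through the cKO library. Over members with at least 20 CPM in the control alone, the median was 1.32 in ependymal cells, 1.29 in astrocytes and 0.86 in microglia. It was 0.96 in pericytes or smooth muscle cells, 0.64 in endothelial cells, 0.44 in T cells and 0.18 in border macrophages. The median of all genes under that rule was not taken. Ifi27 was the only member measured in all 9 classes, and Oas1a, Oas3 and Oasl1 were measured in none. Of the 32 members measured in 3 classes or more, Ifit3b was the 1 that was higher in every class where it was measured.

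**Figure D2:**
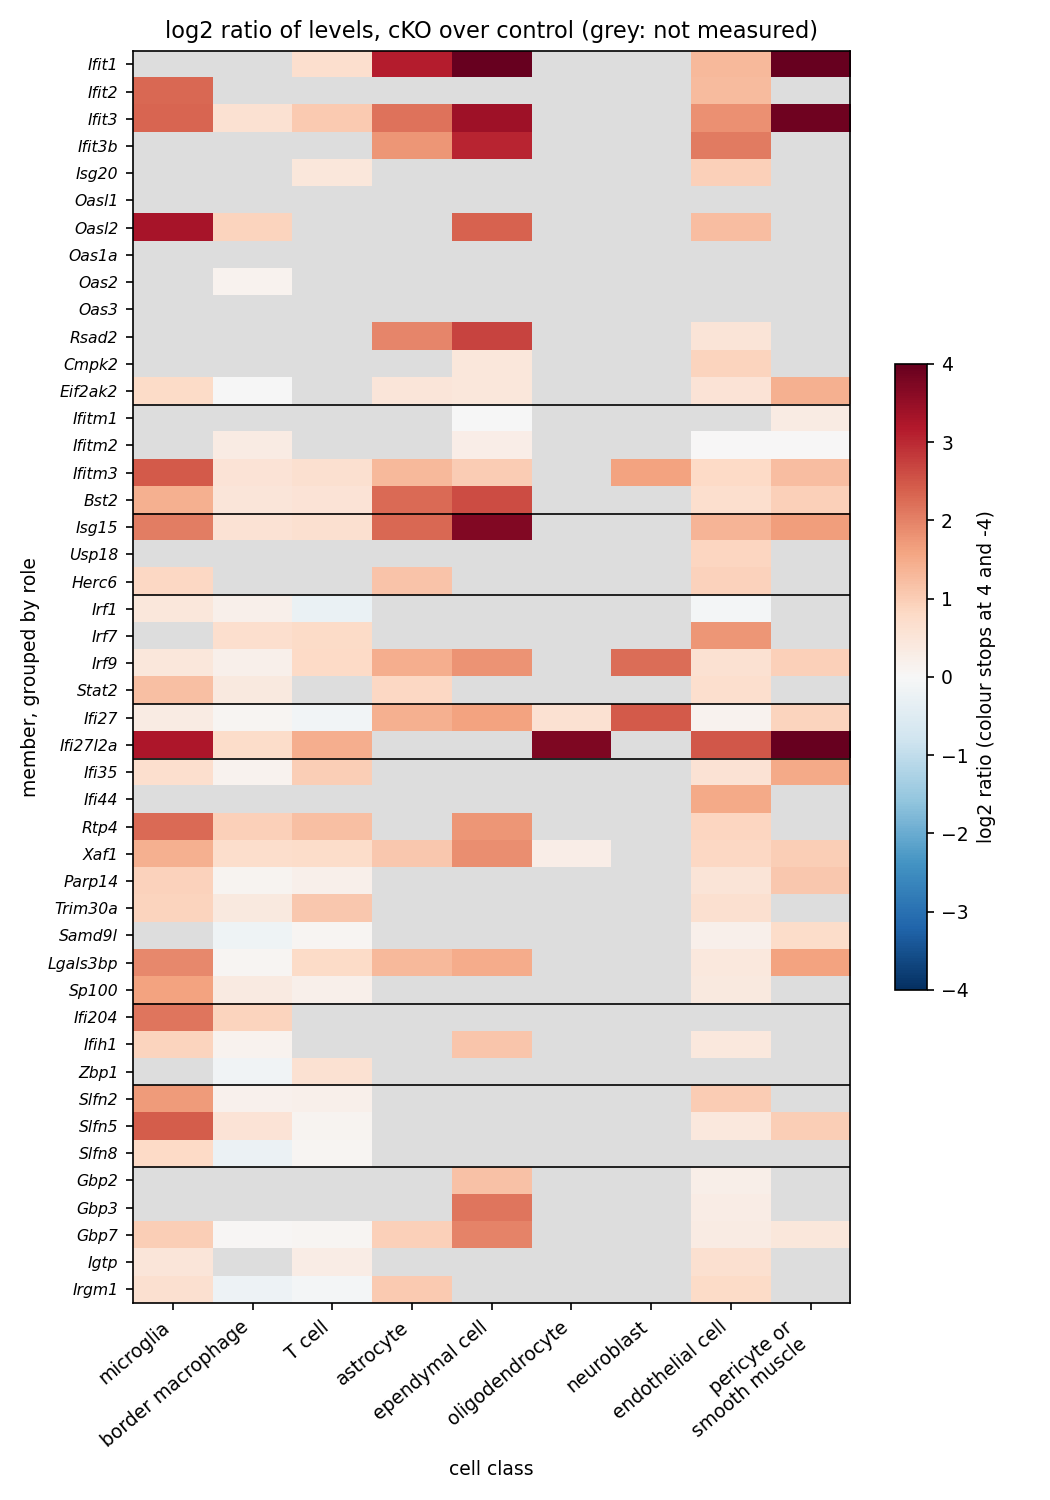
Colour gives the log2 ratio of levels, cKO over control, of each member (rows, grouped by role and separated by lines) in each cell class (columns), and grey marks a member that was not measured there. Red prevails in microglia, astrocytes, ependymal cells and pericytes or smooth muscle cells, border macrophages are pale, and the darkest squares include Ifit1 in ependymal cells (4.52) and in pericytes or smooth muscle cells, where the control had 0 UMIs.

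Among the transcription factors, Irf7, which drives the later wave of interferon genes, was measured in 3 classes. It stood at 51.6 and 176 CPM (log2 ratio 1.77, 1.58 to 1.96) in endothelial cells, at 47.6 and 75.3 CPM (log2 ratio 0.66, -0.15 to 1.47) in border macrophages and at 54.5 and 93.2 CPM (0.77) in T cells. Only the endothelial ratio passed 2-fold. Irf9, the DNA-binding part of the type I complex, was measured in 8 classes and had 7.41 and 34.9 CPM (2.24) in neuroblasts, 14.7 and 51.5 CPM (1.81) in ependymal cells, 11.8 and 32.6 CPM (1.46) in astrocytes and 46.5 and 63.4 CPM (0.45) in microglia. The neuroblast value rests on 5 and 46 UMIs. Stat2, its partner, had 14.3 and 32.8 CPM (1.19) in microglia. Irf1, a factor induced most strongly by interferon gamma, was measured in 4 classes, which do not include neuroblasts, ependymal cells or astrocytes. Its log2 ratio was 0.46 in microglia and 0.21 in border macrophages, where Irf9 had 0.45 and 0.21. In endothelial cells Irf1 had -0.07 and in T cells -0.26. Irf9 was higher in the cKO library in both, at 69.1 and 105 CPM in endothelial cells and 39.4 and 68.5 CPM in T cells.

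The Ifit proteins, which bind foreign RNA and block its translation, gave several of the highest ratios. Ifit1 stood at 7.34 and 169 CPM (log2 ratio 4.52, 4.06 to 5.03) in ependymal cells, at 5.06 and 44.4 CPM (log2 ratio 3.13, 2.74 to 3.55) in astrocytes and at 112 and 274 CPM (1.29) in endothelial cells. In pericytes or smooth muscle cells it had 0 and 44 UMIs, at least 13.8-fold higher against a floor of 3 UMIs in the control class, with 68.2% of the cKO UMIs in 5 cells. In microglia Ifit1 was below the minimum, at 5.53 and 23.2 CPM (2.07). Ifit3 was higher in 6 of the 7 classes where it was measured. It had 16.5 and 172 CPM (log2 ratio 3.38, 3.05 to 3.72) in ependymal cells, 13.8 and 69.2 CPM (log2 ratio 2.32, 1.96 to 2.70) in microglia, 21.7 and 96.9 CPM (log2 ratio 2.16, 1.96 to 2.36) in astrocytes and 46.5 and 165 CPM (log2 ratio 1.83, 1.63 to 2.03) in endothelial cells. Its widest interval was in pericytes or smooth muscle cells, whose 3 and 47 UMIs gave 4.55 and 66.9 CPM (log2 ratio 3.88, 2.24 to 6.21). T cells had 66.7 and 137 CPM (1.04), and border macrophages, the exception, 37.4 and 56.5 CPM (0.59). Ifit3b, its near copy, was higher in each of the 3 classes where it was measured, with 12.8 and 105 CPM (3.03) in ependymal cells, 17.3 and 73.5 CPM (2.08) in endothelial cells and 14.4 and 48.8 CPM (1.76) in astrocytes. Ifit2 was measured in microglia at 7.78 and 37.9 CPM (log2 ratio 2.28, 1.80 to 2.79) and in endothelial cells at 25.7 and 61.3 CPM (1.25).

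Of the oligoadenylate synthetase family, whose active members trigger RNA decay, Oasl2 had the highest ratio of any member in microglia, 4.49 and 44.6 CPM (log2 ratio 3.31, 2.72 to 3.96). Its level was highest in cKO endothelial cells (65.4 and 152 CPM, log2 ratio 1.22), and it had 19.6 and 100.1 CPM (2.35) in ependymal cells and 40.8 and 75.3 CPM (0.88) in border macrophages. Oas2 was measured only in border macrophages (68.0 and 75.3 CPM, log2 ratio 0.15). Rsad2, which encodes viperin, an enzyme that makes a chain-terminating nucleotide, had 12.7 and 82.9 CPM (log2 ratio 2.71, 2.32 to 3.12) in ependymal cells and 9.63 and 37.1 CPM (log2 ratio 1.95, 1.63 to 2.27) in astrocytes. In endothelial cells, where Rsad2 was most abundant, it had 149.8 and 214 CPM (0.51), and its neighbour Cmpk2, a mitochondrial nucleotide kinase, 35.6 and 65.4 CPM (0.88). Eif2ak2, the RNA-activated kinase PKR, passed 2-fold in 1 of 6 classes, pericytes or smooth muscle cells (12.1 and 32.8 CPM, log2 ratio 1.43). Isg20, an exonuclease, had 16.0 and 31.2 CPM (0.97) in endothelial cells and 69.7 and 95.9 CPM (0.46) in T cells. With the Ifit genes, the 13 members that act on RNA or nucleotides summed to 144 and 735 CPM in ependymal cells, 82.8 and 318 in microglia, 93.3 and 315 in astrocytes, and 359 and 342 in border macrophages.

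Isg15, a ubiquitin-like protein that is conjugated to other proteins and also secreted, was higher in 5 of 7 classes. It stood at 13.4 and 174 CPM (log2 ratio 3.70, 3.34 to 4.07) in ependymal cells, 7.92 and 38.6 CPM (log2 ratio 2.28, 1.95 to 2.63) in astrocytes and 154 and 394 CPM (log2 ratio 1.35, 1.24 to 1.47) in endothelial cells. Microglia had 18.1 and 75.3 CPM (2.05), pericytes or smooth muscle cells 37.9 and 119.6 CPM (1.66), T cells 127 and 200.1 CPM (0.65) and border macrophages 59.5 and 88.8 CPM (0.58). The T cell and border macrophage ratios were below 2-fold. Herc6, the ligase that attaches Isg15 in mice, had 19.3 and 42.9 CPM (1.15) in astrocytes, 18.7 and 35.7 CPM (0.93) in endothelial cells and 25.6 and 45.3 CPM (0.82) in microglia. Usp18, which removes Isg15 and dampens the type I receptor, was measured only in endothelial cells (33.5 and 60.2 CPM, log2 ratio 0.85), and in neuroblasts it was below the minimum level, with 4 and 31 UMIs.

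Membrane-bound restriction factors included the most abundant member of 5 of the 9 classes. Ifitm3, which blocks fusion of viruses in endosomes, was the member with the most UMIs in endothelial, ependymal and border macrophage cells and in pericytes or smooth muscle cells. It stood at 1075 and 1861 CPM (log2 ratio 0.79, 0.75 to 0.84) in endothelial cells, 878 and 1781 CPM (log2 ratio 1.02, 0.96 to 1.08) in ependymal cells, 458 and 1087 CPM (log2 ratio 1.25, 1.05 to 1.44) in pericytes or smooth muscle cells and 1173 and 1698 CPM (log2 ratio 0.53, 0.37 to 0.69) in border macrophages. Its highest ratio was in microglia, 44.4 and 244 CPM (log2 ratio 2.46, 2.26 to 2.66). Astrocytes had 36.1 and 88.4 CPM (1.29), T cells 97.0 and 151 CPM (0.64), neuroblasts 11.9 and 36.4 CPM (log2 ratio 1.62, 0.53 to 2.91) and oligodendrocytes, below the minimum, 9.16 and 14.6 CPM (0.67). Ifitm2, encoded on the same locus, did not share this pattern. It had 389 and 389 CPM (log2 ratio 0.00, -0.08 to 0.08) in endothelial cells, 382 and 389 CPM (0.02) in pericytes or smooth muscle cells, 627 CPM in cKO border macrophages with a log2 ratio of 0.33 and, below the minimum, 16.3 and 21.2 CPM (0.38) in neuroblasts. Ifitm1 had 299 and 372 CPM (0.31) in pericytes or smooth muscle cells and 29.0 and 28.9 CPM (-0.01) in ependymal cells. Bst2, or tetherin, which holds budding virions at the cell surface, was higher in 3 of 7 classes: 27.0 and 166 CPM (log2 ratio 2.62, 2.35 to 2.90) in ependymal cells, 13.2 and 62.9 CPM (log2 ratio 2.25, 1.99 to 2.52) in astrocytes and 187 and 499 CPM (log2 ratio 1.42, 1.31 to 1.53) in microglia, where it had the most UMIs of any member. In endothelial cells Bst2 had 219 and 349.5 CPM (0.68), in border macrophages 895 and 1259 CPM (0.49), in T cells 212 and 307 CPM (0.53) and in pericytes or smooth muscle cells 69.8 and 134 CPM (0.94).

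Guanylate-binding proteins and immunity-related GTPases, which attack the membranes around intracellular pathogens and are strongly induced by interferon gamma, had lower ratios than the Ifit genes. In each of the 7 classes where both were measured, each measured Ifit gene had a higher ratio than each measured gene of this role. The sum over the 5 genes gave a log2 ratio of 0.84 in microglia, 1.22 in astrocytes, 1.63 in ependymal cells, 0.38 in endothelial cells, 0.08 in border macrophages and -0.08 in T cells. In endothelial cells 0 of 5 passed 2-fold, with Gbp7 at 212 and 268 CPM (0.34), Gbp3 at 132 and 162 CPM (0.29) and Igtp at 38.6 and 59.8 CPM (0.63). Ependymal cells were the class where the measured genes of this role were higher, 3 of 3, with Gbp7 at 8.81 and 34.7 CPM (1.98), Gbp3 at 11.4 and 50.4 CPM (2.15) and Gbp2 at 35.4 and 80.0 CPM (1.18). Gbp7 stood just under 2-fold in astrocytes (21.5 and 42.0 CPM, log2 ratio 0.96) and in microglia (56.2 and 112 CPM, log2 ratio 1.00). Irgm1 had 16.4 and 33.9 CPM (1.05) in astrocytes and 52.7 and 45.7 CPM (-0.20) in border macrophages.

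Of the nucleic acid sensors, Ifi204, a DNA sensor of the myeloid lineage, had 11.8 and 51.8 CPM (2.14) in microglia and 109 and 202 CPM (log2 ratio 0.89, 0.39 to 1.39) in border macrophages. Ifih1, the double-stranded RNA sensor MDA5, passed 2-fold in ependymal cells (12.8 and 27.8 CPM, log2 ratio 1.11) and had 18.7 and 34.6 CPM (0.89) in microglia, 61.1 and 82.8 CPM (0.44) in endothelial cells and 39.1 and 43.0 CPM (0.14) in border macrophages. Zbp1, which binds Z-form nucleic acid and can start necroptosis, was measured in T cells (48.5 and 74.0 CPM, log2 ratio 0.61) and border macrophages (47.6 and 43.0 CPM, log2 ratio -0.15). Of the Schlafen genes, which act on tRNA and on growth of lymphoid and myeloid cells, 2 of 3 measured were 2-fold higher in microglia, where Slfn5 had 10.0 and 53.4 CPM (log2 ratio 2.41, 1.99 to 2.86) and Slfn2 48.7 and 159 CPM (1.71). Endothelial cells had much more Slfn5, at 358 and 482 CPM (log2 ratio 0.43, 0.35 to 0.51), with a ratio below 2-fold. Slfn2 stood at 400.0 and 463 CPM (0.21) in T cells and at 229.6 and 261 CPM (0.18) in border macrophages, and just passed 2-fold in endothelial cells, at 45.6 and 91.7 CPM (1.01). Slfn8 had 48.2 and 83.6 CPM (0.79) in microglia and 44.2 and 37.7 CPM (-0.23) in border macrophages.

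The 2 members of the Ifi27 family, small membrane proteins, differed from each other although their genes are neighbours. Ifi27l2a was higher in 5 of the 6 classes where it was measured. In microglia it stood at 53.8 and 505 CPM (log2 ratio 3.23, 3.06 to 3.41) and alone made up 18.1% of the difference in the summed level. T cells had 485 and 1316 CPM (log2 ratio 1.44, 1.18 to 1.71), which was 47.1% of their difference, endothelial cells 25.3 and 142 CPM (log2 ratio 2.48, 2.22 to 2.76) and border macrophages 899.6 and 1488 CPM (log2 ratio 0.73, 0.55 to 0.90). In oligodendrocytes, with 59 and 563 UMIs, it stood at 9.01 and 121 CPM (log2 ratio 3.74, 3.35 to 4.15). The cKO UMIs lay in 55 of 559 cells, and the 5 cells with the most held 51.0% of them. In pericytes or smooth muscle cells Ifi27l2a, with 2 and 45 UMIs, stood at 3.03 and 64.1 CPM (log2 ratio 4.40, 2.46 to 7.49), and 77.8% of its cKO UMIs lay in 5 cells. In neuroblasts it was below the minimum, with 3 and 39 UMIs. Ifi27 instead was higher in astrocytes (104 and 281 CPM, log2 ratio 1.43, 1.33 to 1.53), ependymal cells (196 and 602 CPM, log2 ratio 1.62, 1.51 to 1.73) and neuroblasts (47.4 and 262 CPM, log2 ratio 2.46, 1.94 to 3.03). It had 138 and 212 CPM (0.61) in oligodendrocytes, 153 and 285 CPM (0.89) in pericytes or smooth muscle cells, 137 and 173 CPM (0.33) in microglia, 288 and 315 CPM (0.13) in endothelial cells and 169.7 and 156 CPM (-0.12) in T cells. In astrocytes Ifi27 was spread over many cells, with a UMI in 8.93% and 23.9% of cells after thinning each cell to 1000 UMIs.

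The remaining 9 members form no single family. Lgals3bp, a secreted glycoprotein, had 136 and 521 CPM (log2 ratio 1.94, 1.82 to 2.06) in microglia, 78.1 and 192 CPM (log2 ratio 1.29, 1.18 to 1.41) in astrocytes, 21.2 and 65.5 CPM (1.62) in pericytes or smooth muscle cells and 272 and 285 CPM (0.07) in border macrophages. Rtp4, a chaperone of receptors, had 17.3 and 82.5 CPM (2.25) in microglia, 33.3 and 76.7 CPM (1.20) in T cells and 56.1 and 108 CPM (log2 ratio 0.94, 0.24 to 1.65) in border macrophages, the highest ratio of that class. Trim30a, a regulator of Toll-like receptor signalling, had 101 and 187 CPM (0.89) in microglia and 84.8 and 178 CPM (log2 ratio 1.07, 0.41 to 1.76) in T cells. Xaf1, a pro-apoptotic factor, was measured in 8 classes. In oligodendrocytes it was among the 3 most abundant members, at 114 and 138 CPM (log2 ratio 0.27, 0.12 to 0.43), while Stat2 (67 and 51 UMIs) and Ifit2 (62 and 55 UMIs) were below the minimum there. In border macrophages Xaf1 had 54.4 and 88.8 CPM (0.71). Ifi35 had 19.7 and 57.0 CPM (1.53) in pericytes or smooth muscle cells and 54.5 and 107 CPM (0.97) in T cells. Ifi44 was measured only in endothelial cells, at 29.6 and 84.6 CPM (log2 ratio 1.52, 1.26 to 1.78). Sp100, a nuclear body protein, had 19.0 and 58.3 CPM (1.62) in microglia and 255 and 296 CPM (0.22) in T cells, where it was the third most abundant member. Parp14 and Samd9l stayed below 2-fold wherever measured, apart from Parp14 in pericytes or smooth muscle cells (28.8 and 61.2 CPM, log2 ratio 1.09).

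A higher class level can come from more cells or from more RNA per cell with these genes, so each cell was also thinned to 1000 UMIs and called responding with UMIs of at least 2 different core genes. The call rests on detection alone, so it also depends on the resting level of the core genes in a class. In microglia 3.61% (50 of 1386, 2.69 to 4.73) of control and 17.4% (130 of 745, 14.8 to 20.4) of cKO cells were responding, where the range is an exact Clopper-Pearson 95% interval for counting error. The shares were 1.07% (28 of 2619, 0.712 to 1.54) and 6.95% (106 of 1526, 5.72 to 8.34) in astrocytes, 1.25% (3 of 240, 0.259 to 3.61) and 16.2% (18 of 111, 9.90 to 24.4) in ependymal cells, and 1.81% (3 of 166, 0.374 to 5.19) and 12.1% (21 of 173, 7.67 to 18.0) in pericytes or smooth muscle cells. In endothelial cells, where the core genes summed to 1609 CPM in the control against 166 CPM in control astrocytes, they were 40.3% (271 of 672, 36.6 to 44.1) and 64.0% (553 of 864, 60.7 to 67.2). They were 21.4% (27 of 126, 14.6 to 29.6) and 30.4% (21 of 69, 19.9 to 42.7) in border macrophages, 21.3% (16 of 75, 12.7 to 32.3) and 30% (24 of 80, 20.3 to 41.3) in T cells, and 0.426% (4 of 938, 0.116 to 1.09) and 1.25% (7 of 559, 0.505 to 2.56) in oligodendrocytes. With 1 library per genotype these differences have no replicate check. In neuroblasts 0 of 142 control cells responded, which allows a share of up to 2.11%, and 1.23% (3 of 243, 0.255 to 3.57) of cKO cells did. Here and below, the limit beside a count of 0 is 3 counts of the total and not a Clopper-Pearson interval. The lowest shares, in neuroblasts and oligodendrocytes, came at median depths of 4400.5 and 4905 UMIs and of 6393 and 7585 UMIs before thinning, and no share in cells without these genes could be read as background. Without thinning the shares were 25.5% and 58.7% in microglia (median depths 3857 and 5262), 12.4% and 32.3% in astrocytes (4388 and 4986), 64.2% and 87.4% in ependymal cells (17487.5 and 14781), 18.1% and 40.5% in pericytes or smooth muscle cells (3355 and 3534), and 89.0% and 98.5% in endothelial cells (5932 and 7271). In the other classes they were 56.3% and 79.7% (border macrophages), 54.7% and 67.5% (T cells), 9.17% and 18.2% (oligodendrocytes) and 2.82% and 12.8% (neuroblasts).

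**Figure D3:**
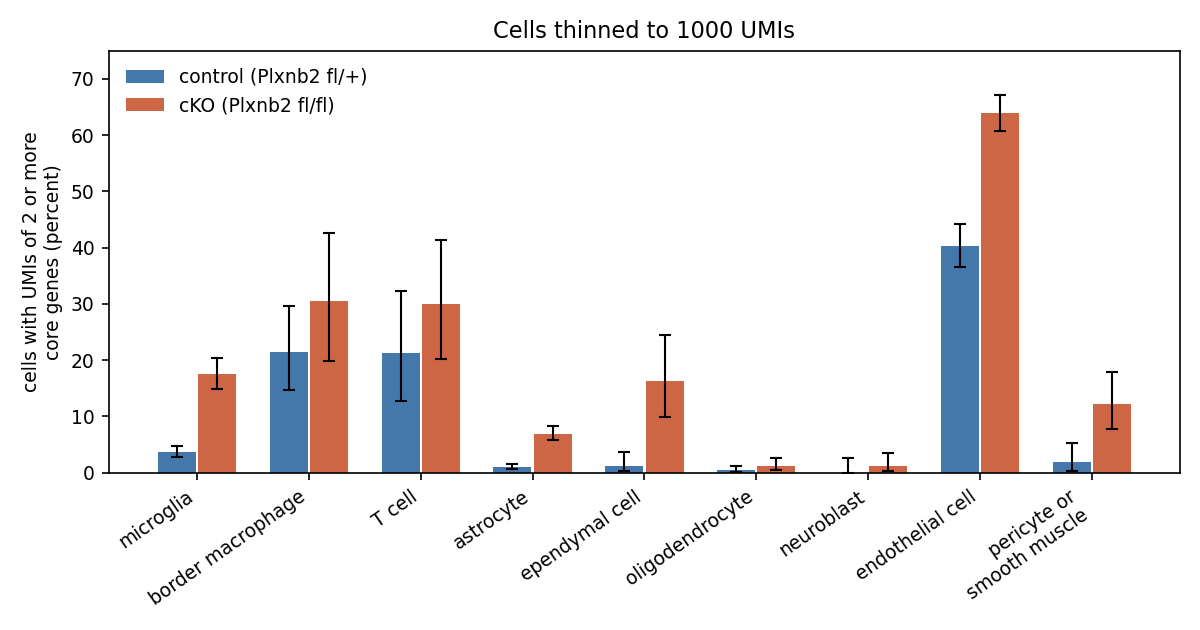
Bars give the percent of cells, thinned to 1000 UMIs, with UMIs of at least 2 core genes in each class and library, and error bars are exact Clopper-Pearson 95% intervals for counting error. Endothelial cells stand highest in both libraries, at 40.3% and 64.0%, and the bars of microglia, astrocytes, ependymal cells and pericytes or smooth muscle cells are taller in the cKO library.

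Core UMIs were unevenly spread among the cells of a class. In cKO ependymal cells the variance of core UMIs per thinned cell was 4.72 times the mean, against 0.963 in the control, and 50.5% of these cKO cells had no core UMI. The ratio of variance to mean was 2.41 and 4.16 in astrocytes, 1.76 and 3.67 in endothelial cells, 1.16 and 4.03 in pericytes or smooth muscle cells, and 2.86 and 3.23 in microglia. It was lower in the cKO library in T cells (6.24 and 4.22) and border macrophages (3.17 and 1.75). A few cells carried much of the ependymal signal: 5 of 111 cKO cells held 66.0% of the Ifit1 UMIs, 63.4% of the Isg15 UMIs and 58.9% of the Ifit3 UMIs. Counted as cells with a UMI after thinning, which a few strong cells barely raise, ependymal Ifit3 was found in 1.25% and 15.3% and Ifit1 in 0.417% and 9.01%. In astrocytes 5 of 1526 cKO cells held 46.2% of the Isg15 UMIs, but 17.7% of the Ifit3 and 3.65% of the Ifi27 UMIs.

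**Figure D4:**
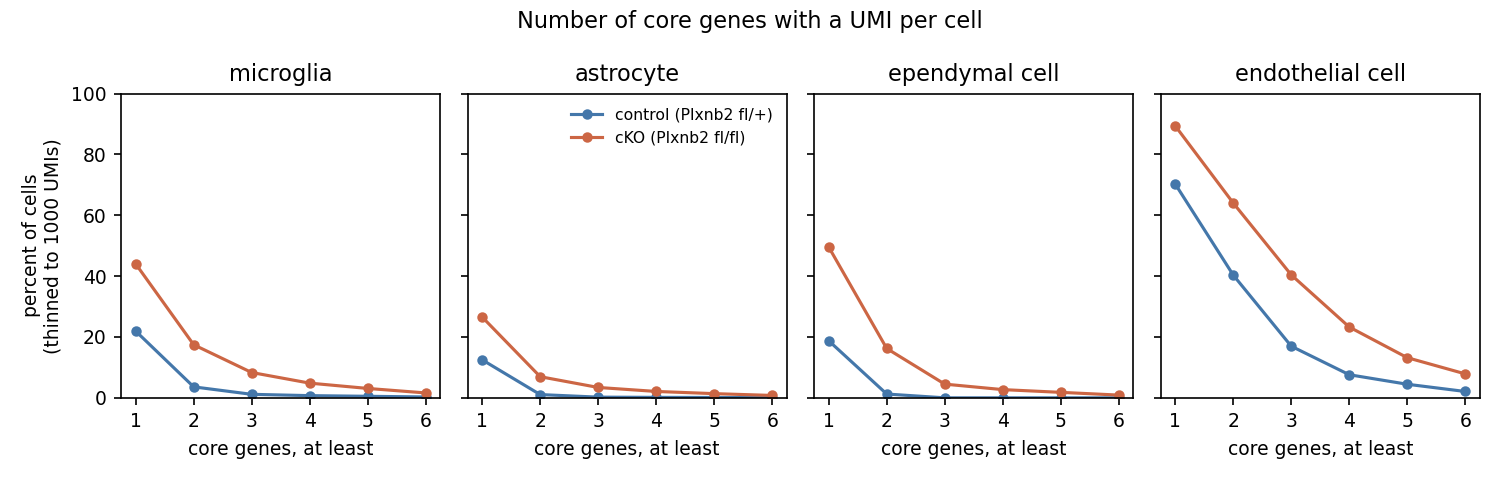
Percent of cells with UMIs of at least 1, 2, 3, 4, 5 or 6 core genes after thinning to 1000 UMIs, in 4 classes and both libraries. The cKO line lies above the control line at each number in all 4 classes. In cKO ependymal cells it goes from 49.5% at 1 gene to 4.50% at 3 genes. There 0 of 240 control cells reach 3 genes, which allows a share of up to 1.25%, and at 6 genes the cKO ependymal line rests on 1 cell.

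Within classes the clusters differed in member level. The 4 astrocyte clusters had summed member levels of 445 and 951 CPM (cluster 0), 772 and 2120.3 (cluster 4), 457 and 1854 (cluster 5) and 408 and 928 (cluster 11). In cluster 5 0.324% of control and 14.2% of cKO cells were responding, and in cluster 4 2.40% and 8.76%. The 3 endothelial clusters had 4482 and 7342 (cluster 3), 5654 and 8409 (cluster 13), and 5392 and 8127 CPM (cluster 21). Responding cells were 39.1% and 63.8% in cluster 3 and 44.2% and 73.2% in cluster 13. In cluster 21 the shares were close, at 52% (13 of 25, 31.3 to 72.2) and 53.8% (49 of 91, 43.1 to 64.4). The 2 pericyte or smooth muscle clusters had 2959.7 and 4504, and 1122 and 2712 CPM. The summed level of each of these 9 clusters was higher in the cKO library, as was that of each microglial cluster: cluster 1 with 1343 and 3824 CPM and the shallow cluster 12 with 1444 and 4156 CPM. Oligodendrocyte cluster 2 was higher too, at 355 and 635 CPM, and cluster 22 was not, at 262 CPM in 93 control cells (220 to 309) and 238 CPM from 24 UMIs in 16 cKO cells (152 to 354). Cdkn1a, the p21 gene and a brake on cell division, crosses this group in microglia. Of cKO microglia with a Cdkn1a UMI after thinning 22.4% were responding (55 of 246, 17.3 to 28.1), and of those without one 15% (75 of 499, with an interval from 12% to 18.5%). In control microglia 0 of 18 cells with a Cdkn1a UMI were responding, which allows a share of up to 16.7%, and 3.65% of those without one (50 of 1368, 2.72 to 4.79).

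The level of members in free RNA was read from shallow barcodes. In cKO barcodes of 1 to 100 UMIs, which mostly hold no cell, the members summed to 3190.0 CPM from 12498 UMIs. Ifitm3 had 623 CPM there, Ifi27l2a 269.8, Bst2 231, Isg15 116, Ifit3 65.3 and Ifit1 64.8. The control table holds no barcode this shallow, so the same level was not read there. Neuroblast Ifitm3, at 36.4 CPM in the cKO library, was 5.85% of the free level. The same percentage of the free Ifi27 level is 15 CPM, where cKO neuroblasts had 262. In oligodendrocytes the Ifitm3 percentage was 2.34% and the corresponding Ifi27l2a level 6.30 CPM, where the cells had 121. In astrocytes the percentage was 14.2%, with corresponding levels of 9.20 CPM for Ifit1, 9.27 for Ifit3 and 32.8 for Bst2, where the cells had 44.4, 96.9 and 62.9. In microglia it was 39.1%, with 106 CPM for Ifi27l2a and 45.5 for Isg15, where the cells had 505 and 75.3, and 100.1 CPM for Ifi27, where they had 173 and control microglia 137. In T cells it was 24.2%, with 61.9 CPM for Ifi27 and 65.3 for Ifi27l2a, where the cells had 156 and 1316. The part of free RNA in the member ratios was not tested.

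Markers of other cell types also differed between the libraries in some classes. Endothelial markers were higher in cKO pericytes or smooth muscle cells, with 6 of 6 measured markers 2-fold higher, a sum of 138 and 874 CPM over 10 genes, and Tek at 0 in the control. The cKO sum was 4.75% of its level in endothelial cells, and that percentage of the endothelial member level is 365 CPM, where the pericyte or smooth muscle difference in members was 1737 CPM. In ependymal cells the endothelial markers summed to 33.6 and 174 CPM, with 2 of 2 measured markers higher and Erg at 0 in the control. This was 0.946% of the endothelial level in the cKO library, which for members comes to 72.8 CPM of a difference of 2738 CPM. In microglia they summed to 114 and 177 CPM (2 of 4 measured higher), and in T cells to 815 and 987 CPM (1 of 6 higher). Astrocyte markers were less abundant in cKO border macrophages (1469 and 457 CPM, 6 of 7 measured lower) and neuroblasts (1323 and 661 CPM, 5 of 7 lower), and more abundant in cKO T cells (755 and 1582 CPM, 3 of 7 higher). Microglial markers were less abundant in cKO astrocytes (439 and 262 CPM, 2 of 6 lower), oligodendrocytes (351 and 153 CPM, 2 of 4), endothelial cells (274 and 123 CPM, 1 of 2), neuroblasts (437 and 212 CPM, 4 of 6) and pericytes or smooth muscle cells (507 and 238 CPM, 4 of 6), with no marker of the 11 at 0. The part of these endothelial, astrocyte and microglial markers in the member ratios was not tested.

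The result in pericytes or smooth muscle cells depended on the cells kept. With a mitochondrial limit of 5% in place of 10%, 63 control and 76 cKO cells remained, the summed log2 ratio was 0.44 and 0 members were 2-fold higher among the 8 that still passed the minimum. Of the 9 called under the filters used here, Ifitm3 (0.62) and Lgals3bp (0.78) were still measured and below 2-fold. The other 7 fell under the minimum, with log2 ratios of 3.95 for Ifi27l2a, 2.83 for Ifit3, 2.12 for Eif2ak2, 0.96 for Isg15, 0.20 for Ifi35 and 0.82 for Parp14, and Ifit1 had 0 control and 14 cKO UMIs. In border macrophages 3 members were 2-fold higher under that limit and 4 with a floor of 500 UMIs per cell, where none was under the filters used here. In T cells, where 4 were, 8 were with that floor.

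Outside the members, the pathway that leads to them was described with lists. Of 14 interferon genes, Ifnb1 had 6 UMIs, all in 1 cKO microglial cell, and the type I and type III genes otherwise had 0 UMIs in the kept cells of both libraries. Ifng, the gene of the type II interferon of T and NK cells, stood at 127 and 309.7 CPM (log2 ratio 1.28, 0.76 to 1.83) in T cells. It had a UMI in 20 control and 28 cKO T cells, of 30 and 35 kept cells with one in all. The others included 7 control and 3 cKO ependymal cells. The T cell cluster also held 4 markers of NK cells. No receptor or JAK gene was 2-fold higher or lower in a class where it was measured.

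Sensors that act upstream of interferon, such as Ddx58, Tmem173 and Tlr3, had 0 of 10 measured genes 2-fold higher in microglia (median 0.02), 0 of 4 in endothelial cells and 0 of 3 in astrocytes. In border macrophages 1 of 8 was lower, Tlr3 at 44.2 and 21.5 CPM (-1.04). Feedback inhibitors had 0 of 5 higher in microglia (median -0.09), and in border macrophages 1 of 4 was higher, Socs3 at 28.9 and 96.9 CPM (1.74). Of 43 further interferon-induced genes that are no members, 0 of 15 measured passed 2-fold in microglia, with a median of 0.37 and Phf11d highest at 21.3 and 39.3 CPM (0.88). The counts were 0 of 25 in endothelial cells (median 0.29), 0 of 7 in astrocytes (0.35), 0 of 2 in oligodendrocytes and 0 of 4 in neuroblasts. They were 3 of 6 in ependymal cells, including Iigp1 at 2.02 and 39.1 CPM (4.28) and Ly6e at 8.44 and 38.7 CPM (2.20), 4 of 9 in pericytes or smooth muscle cells, including Ly6e at 24.3 and 101 CPM (2.06), 3 of 23 in border macrophages, including Ifi211 at 35.7 and 99.6 CPM (1.48), and 2 of 16 in T cells, including Ms4a4c at 33.3 and 76.7 CPM (1.20). The median of the listed members was above that of these other interferon-induced genes in 8 classes and below it in border macrophages, at 0.27 against 0.48, and the members were listed with these values known. Both medians are of measured genes, and a gene can pass that minimum through the cKO library alone. Across the 9 classes, the non-members whose log2 ratio most resembled the median of the members were Chchd7 (Pearson r 0.90) and Nufip2 (0.90), followed by Stx5a, Ppil2 and Arih1, of 3003 genes compared. Their own ratios stayed within -0.60 and 0.87, and the 9 points share the same 2 libraries. The medians in neuroblasts and in oligodendrocytes rest on 3 measured members each. A high r for the first of 3003 genes ranked on 9 points is no sign of shared regulation.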

How the data were processed

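Single cells of 2 brain libraries, 1 per host genotype, were prepared with 10x Genomics 3′ v3.1 chemistry, per the labels' protocols. The authors deposited unnormalized UMI counts, a matrix of genes by barcodes for each library, from Cell Ranger 7.1.0 and mm10, per the submitters' processing notes. The annotation release, the counting of introns and any removal of free RNA were not given in the sources used here. Control depth was 64756949 UMIs and cKO depth 63785513. Members and gene lists were chosen with earlier results of these data known.

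Barcodes with at least 1000 UMIs and 500 genes and at most 10% mitochondrial UMIs were kept. Simulated doublets were used to remove 5.24% of control and 3.56% of cKO barcodes. Cells were clustered with Leiden at resolution 1 in scanpy 1.11.5 (Python 3.11.15). A cluster was named from its markers when at least 3 were detected, and clusters with leading genes of another class or with a median depth under the library's divided by 3 and none of the name's markers among their 10 leading genes stayed unnamed. UMI counts were summed per class and library and given as counts per 1e+06 UMIs (CPM), with exact Poisson intervals for levels and exact conditional intervals for ratios. The interval, thinning and ratio code was tested on simulated data. Printed in full are the up to 6 members with the most UMIs and the up to 6 measured members with the largest ratios of a class, and others by role, for which further values were chosen after they were seen. One gene of the pathway lists is not reported here. Tests between groups were left out, since each has 1 library, and intervals and floors cover counting error only. Alternatives covered the filters on cells, doublets, resolution, minimum level, fold, scaling and thinning. Positions are from GENCODE vM21, which held 99.8% of the gene identifiers, and promoter windows from RefSeq.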

Additional observations from a re-analysis of the deposited data

Results flagged for a closer look

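Members were also found in data that the class comparisons did not use. The cKO barcodes with 1 to 100 UMIs held the members at 3190 CPM (12498 of 3917906 UMIs), and no control barcode is this shallow. It is listed because these barcodes enter no comparison.

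In 5 clusters that kept no class name, the summed level of members was higher in the cKO library than in the control library. The log2 ratio was 1.33 in cluster 6, whose 384 control and 152 cKO cells hold microglial markers at low depth. It was 0.71 in cluster 7 (168 and 344 cells) and 0.73 in cluster 17 (80 and 82 cells), both with endothelial markers beside genes of other cell types, 0.76 in cluster 16 (87 and 98 cells), led by genes of dividing progenitors, and 1.02 in cluster 20 (98 and 24 cells), led by Npy, Frzb and Fabp7. In cluster 16 the core genes alone summed to 109.7 and 118 CPM, and 2 of 87 control and 0 of 98 cKO cells were responding, where a count of 0 allows a share of up to 3.06%. These are listed because they lie outside the named classes and their levels were above those of the control, with 1 library per genotype and no test.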

How the results depend on the processing

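With 1 library per genotype, no setting supplies replicate error, and the pairing of samples cannot be used. No paired analysis was possible because the groups share fewer than 2 replicate numbers. Depth limits the small classes most: the control neuroblasts hold 123 member UMIs and the control border macrophages are 126 cells. Pericytes or smooth muscle cells are called mural cells here. The summed log2 ratio stayed above 0 in each class under each alternative tried, while counts of members moved with the thresholds. Control level alone, intervals that exclude equality and microglia without their shallow cluster were alternatives chosen after seeing the data. Of 71 member and class pairs at 2-fold or more with UMIs in both libraries, which leaves out Ifit1 in mural cells, 71 kept their direction with a mitochondrial limit of 5% and 61 stayed at 2-fold; with a floor of 2000 UMIs 71 kept it and 69 stayed. After thinning to 1000 UMIs, 69 of these pairs had UMIs in both libraries, of which 69 kept their direction and 59 stayed at 2-fold. Over all measured pairs, 18 of 179 changed sign after thinning, 2 of them with an interval above equality before it. Sign changed in 9 of 182 pairs with the 5% limit and in 5 of 182 with the floor of 2000 UMIs. The cause of the differences that follow was not tested.

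The summed log2 ratio was 0.57 in border macrophages, 1.38 in astrocytes, 1.39 in ependymal cells, 1.15 in oligodendrocytes and 0.44 in mural cells with a mitochondrial limit of 5%, and 0.71 in T cells with one of 20%. It was 0.56 in border macrophages, 1.55 in astrocytes and 0.88 in mural cells with a floor of 2000 UMIs, 0.60 in border macrophages with one of 500, 0.55 in border macrophages and 1.49 in astrocytes with clusters at resolution 0.5, and 1.59 in microglia with each marked cluster added. It was 1.41 in ependymal cells with doublets kept, 1.29 in ependymal cells and 0.85 in mural cells as a mean over cells, 1.34 in ependymal cells and 0.94 in oligodendrocytes after thinning, and 1.57 in microglia when scaled without mitochondrial, ribosomal and member genes. Without the 3 most abundant members it was 1.26 in microglia, 0.24 in border macrophages, 0.45 in T cells, 1.51 in astrocytes, 1.96 in ependymal cells, 1.15 in neuroblasts, 0.74 in endothelial cells and 1.40 in mural cells.

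The counts that follow were not set beside the share of all genes at the same setting, so they are no result about the members. With no minimum level, any member with a UMI in each library entered, however few its UMIs. The count of members at least 2-fold higher was 28 in microglia, 2 in border macrophages, 7 in T cells, 30 in astrocytes, 32 in ependymal cells, 18 in oligodendrocytes, 15 in neuroblasts and 26 in mural cells with no minimum level, 26 in microglia, 24 in astrocytes, 26 in ependymal cells, 3 in oligodendrocytes and 5 in neuroblasts at 5 CPM, and 6 in microglia, 4 in astrocytes, 11 in ependymal cells, 1 in neuroblasts and 2 in mural cells at 50 CPM. By control level alone it was 6 in microglia, 4 in astrocytes, 6 in ependymal cells, 0 in oligodendrocytes, 1 in neuroblasts and 4 in mural cells. At 1.5-fold it was 24 in microglia, 7 in border macrophages, 13 in T cells, 2 in oligodendrocytes, 23 in endothelial cells and 15 in mural cells, and at 3-fold 0 in T cells, 6 in astrocytes, 4 in endothelial cells and 5 in mural cells. It was 3 in border macrophages and 7 in T cells with a floor of 2000 UMIs, 4 in border macrophages and 8 in T cells with one of 500, 3 in border macrophages at resolution 0.5, 1 in border macrophages and 5 in neuroblasts with doublets kept, 3 in border macrophages and 0 in mural cells at 5% mitochondrial UMIs, where 8 members still passed the minimum in mural cells and Ifi27l2a, Ifit3 and Eif2ak2, below it, had log2 ratios of 3.95, 2.83 and 2.12, and 7 in T cells at 20%.

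The share of responding cells, cKO minus control in percentage points, was 33.1 in microglia, 23.4 in border macrophages, 19.9 in astrocytes, 9.08 in oligodendrocytes, 9.94 in neuroblasts, 9.51 in endothelial cells and 22.4 in mural cells without thinning, and 24.0 in microglia, 12.7 in astrocytes, 26.4 in ependymal cells and 18.8 in mural cells at 2000 UMIs. It was 22.1 in microglia, 14.1 in astrocytes, 30.8 in ependymal cells, 4.02 in oligodendrocytes, 5.65 in neuroblasts and 25.8 in mural cells for 1 core gene, and 7.17 in microglia, 3.18 in astrocytes and 4.50 in ependymal cells for 3. It was 7.63 in astrocytes, 2.34 in oligodendrocytes and 1.82 in mural cells at 5% mitochondrial UMIs, and 30.2 in endothelial cells with doublets kept.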

Other observations

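Cluster 23, which kept no class name because genes of dividing cells lead it beside microglial markers, held 52 cKO and 2 control cells. Its cKO cells had the members at a summed 6058 CPM, above the 3847 CPM of cKO microglia. The core genes alone were not above, at 934 CPM against 958 CPM in cKO microglia. Responding cells were 15.4% (8 of 52, 6.88 to 28.1), against 17.4% of cKO microglia. Cxcl10, an interferon-induced chemokine that is no member, was the leading gene of cluster 23 by fold. With 2 control cells no level of this cluster was read in the control library. Cxcl10 was not confined to it. Control and cKO UMIs were 6 and 171 in endothelial cells, 0 and 56 in pericytes or smooth muscle cells and 1 and 24 in T cells. In border macrophages they were 5 and 0.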
